A study of Mus musculus with 6 samples.

Results

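The cytosolic ribosomal protein genes were followed here in the colon mucosa of wild type (WT) and microRNA-21 knockout (miR-21 KO) mice, as measured on bead arrays. A probe was a member if its gene symbol began with Rpl or Rps and a digit, or was Rplp0, Rplp1, Rplp2 or Rpsa, and the S6 kinase genes (Rps6k) were left out. The rule took 83 of 25697 probes, for 64 of 18138 symbols. Of these symbols, 31 name proteins of the large subunit, 25 name proteins of the small subunit, and 8 are paralogs or other genes that the pattern takes in. The WT group was 3 samples from C57BL/6 mice bought from Taconic, and the KO group was 3 samples from miR-21-/- mice, provided by a different laboratory and kept on the C57BL/6 background. No sample was treated. Genotype and source of the mice cannot be told apart in any difference given here. The labels do not tie each replicate to an animal of its own, so the p-values reflect the spread among 3 samples a group, part of which may be technical.

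Ribosomal proteins and ribosomal RNA make up the ribosome: the small subunit reads the mRNA and the large subunit joins the amino acids. Cells make the proteins in near equal amounts, and their mRNAs are among the most abundant of a dividing or secreting tissue such as the gut lining. In mammals these mRNAs begin with a C followed by a run of pyrimidines, the 5′ terminal oligopyrimidine (TOP) tract, through which mTOR signalling sets how strongly they are translated. An array measures the amount of the mRNA and not its translation. Several members also act outside the ribosome or are linked to inherited anaemia.

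The microRNA that the KO mice lack is short, and its seed (bases 2 to 8, in capitals) is the stretch that pairs with target mRNAs. Its mature sequence in RefSeq (GRCm38.p6, chr11:86584120-86584141, minus strand) is shown because it defines the groups. No probe of the array is named for it.
mmu-miR-21a-5p: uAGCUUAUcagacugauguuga

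RefSeq held a promoter sequence for 52 of the 64 symbols. The windows that follow run from 20 bases before the annotated start to 30 bases after it, on the transcript's strand, with the longest pyrimidine run in capitals. They are shown because a TOP tract would lie at the start of the mRNA. The marked run is the longest anywhere in the window and need not be a TOP tract. In Rps15, Rpl34 and Rps3a it ends before the annotated start, and in Rpsa it lies well after it. The first 4 are the genes with an entry whose brightest probe passed the test with the largest differences, and the last 4 are those with the lowest differences among genes with an entry. In this order they lie at chr7:3704021-3704070 (plus), chr10:80292411-80292460 (plus), chr7:4792945-4792994 (plus), chr17:27635215-27635264 (minus), chr3:28805488-28805537 (plus), chr3:130730369-130730418 (minus), chr9:120127746-120127795 (plus) and chr3:86142639-86142688 (minus) of GRCm38.p6.
Rps9: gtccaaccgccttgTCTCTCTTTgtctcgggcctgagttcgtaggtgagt
Rps15: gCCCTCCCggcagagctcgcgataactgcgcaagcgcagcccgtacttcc
Rpl28: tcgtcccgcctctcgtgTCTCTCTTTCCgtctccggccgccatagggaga
Rps10: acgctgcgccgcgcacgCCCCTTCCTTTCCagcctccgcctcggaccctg
Rpl22l1: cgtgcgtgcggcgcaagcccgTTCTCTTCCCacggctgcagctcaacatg
Rpl34: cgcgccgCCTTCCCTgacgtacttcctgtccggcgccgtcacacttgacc
Rpsa: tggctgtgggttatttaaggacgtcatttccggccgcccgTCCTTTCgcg
Rps3a: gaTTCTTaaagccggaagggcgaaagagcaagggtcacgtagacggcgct

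A run of at least 8 pyrimidines stood in this window in 24 of the 52 genes (46.2 percent), against 18.8 percent of 27025 genes with an entry. The count takes in runs on either side of the start, so it is not a count of TOP tracts. Runs of that length occur both in genes that were higher in KO, such as Rps9, Rpl28 and Rps10, and in genes with negative differences, such as Rpl22l1 and Rpl34. In the 300 bases around the start, on either strand, the ETS motif CCGGAAG was present in 21 genes (40.4 percent, against 9.14 percent of all). The YY1 motif AAGATGGC was present in 4 genes (7.69 against 2.87 percent) and TATAAA in 6 (11.5 against 14.2 percent). The ETS and YY1 motifs can overlap, since one ends and the other begins with AAG. The median GC content of these promoters was 59.2 percent, against 52.7 percent over all genes. Across 46 ribosomal protein genes with a tested probe, GC content and the KO minus WT difference had a Pearson r of -0.018 and a Spearman rho of -0.045, given as a description across genes that share the same arrays. These are matches of letters in a window and not measured binding sites.

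Of the 83 probes, 67 (57 genes) were detected on at least 3 of the 6 arrays and were tested, and 66 were detected on all 6. Detection means a signal above the negative control beads (detection p-value under 0.05). Of the 16 untested probes, 9 were detected on no array and 7 on 1 or 2. The 7 genes with no tested probe were Rpl3l, Rpl6, Rpl14, Rpl17, Rpl39l, Rplp2 and Rps23, whose mean intensities of 94.8 to 102.6 lay near the array medians of 97 to 115. Rpl3l and Rpl39l are known as paralogs of striated muscle and of testis. The other 5 encode core ribosomal proteins, so a dim probe here does not show that the mRNA was scarce. Rpl5, Rpl10, Rpl11, Rpl26, Rpl32, Rps18 and Rps29 were not analysed here. The mouse genome holds many near-identical processed copies of ribosomal protein genes, and whether they add to a probe's signal was not tested.

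Colon tissue markers were present: all 7 measured colonocyte genes and 4 of 5 goblet cell genes were detected. The arrays had 50.4 to 54.6 percent of probes detected and medians of 97 to 115, with WT replicate 3 and KO replicate 3 the dimmest. Arrays correlated at r of 0.981 to 0.990 within groups and 0.956 to 0.972 between groups over all tested probes. Over the ribosomal protein probes alone these ranges were 0.992 to 0.997 and 0.981 to 0.994. The bead standard error of a tested ribosomal protein probe was 2.25 to 6.92 percent of its intensity, with a median of 3.69 percent.

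The comparison of KO with WT asked how the mucosal levels of these mRNAs differed without induced colitis. Values are normalized log2 intensities, differences are KO minus WT on that scale with the standard error (SE), n = 3 per group, and the threshold is an adjusted p of 0.05. Of the 67 tested probes, 11 (10 genes) were higher in KO and 0 were lower, by limma with Benjamini-Hochberg adjustment over all 13737 tested probes. Over all tested probes 7.53 percent were higher and 7.55 percent lower (15.1 percent in either direction), and among the ribosomal protein probes 16.4 percent were higher. At an unadjusted p under 0.05, 22 ribosomal protein probes were higher and 8 lower, against 2322 and 2144 of all 13737. With array weights in the fit, 17 were higher and 8 lower, against 1959 and 1813 of all 13737. The 8 lower were Rpl22l1, Rps27a, Rpsa, Rpl30, Rps24, Rps3a, Rpl34 and Rps27l. With 1 probe per gene, the brightest, 8 of 57 genes were higher. The count of higher probes moved with single arrays: without WT replicate 1, 2 or 3 it was 3, 8 or 0, and without KO replicate 1, 2 or 3 it was 2, 0 or 7. Over all tested probes the higher count moved too, from 1034 to 405, 1062 or 373 and to 454, 212 or 750 in the same order.

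Differences within the family lay on both sides of 0. The median difference of the 67 probes was 0.06 (quartiles -0.16 and 0.45), against 0.03 over all tested probes, and 36 of the 67 differences were positive. All KO arrays lay above all WT arrays for 23 probes (34.3 percent) and below them for 9 (13.4 percent), against 19.4 and 17.0 percent of all tested probes. With median scaling of the arrays in place of quantile normalization the median difference was -0.15, with 2 probes higher and 3 lower, so the sign of the family's median depended on the scaling. Within that scaling the median over all tested probes was -0.03.

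**Figure D1:**
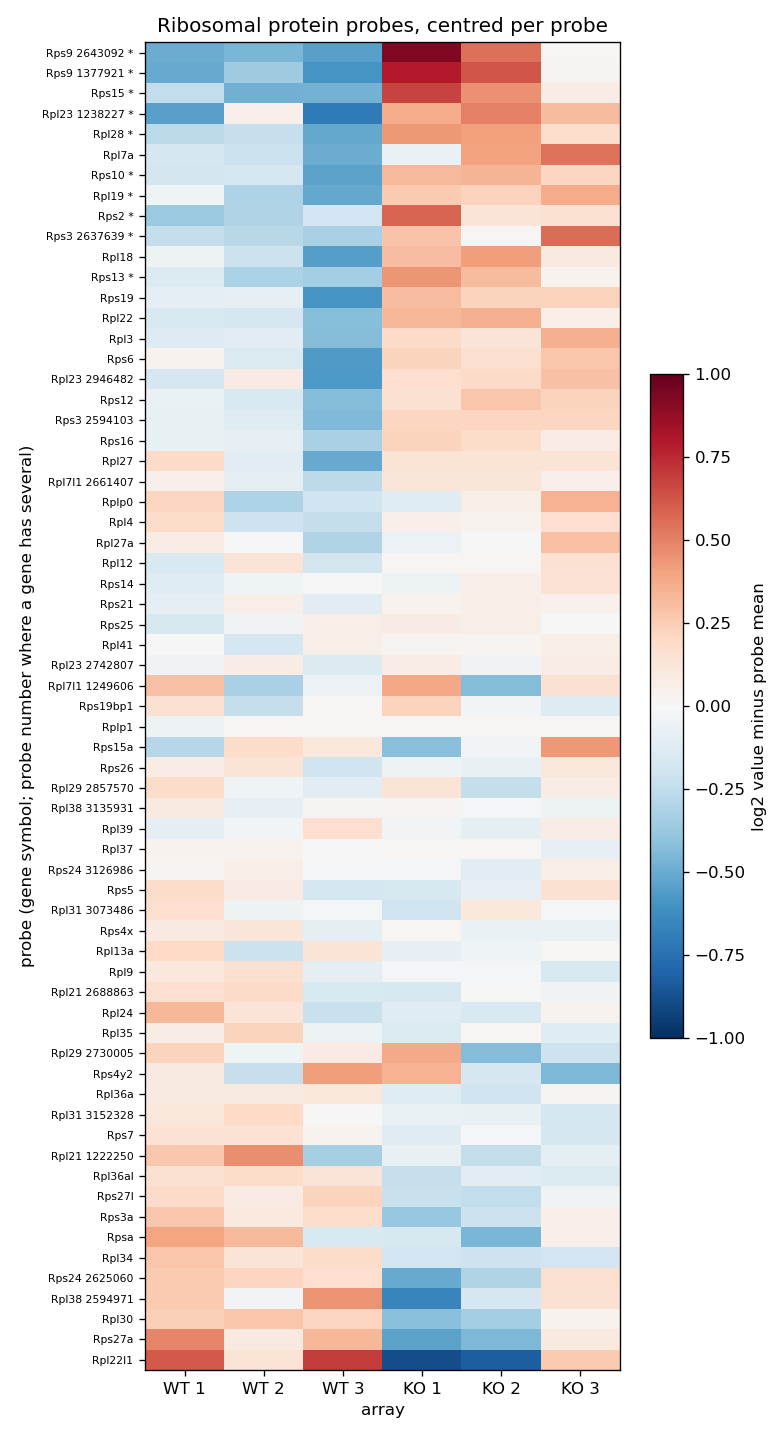
Normalized log2 intensity of 65 of the 67 tested ribosomal protein probes (rows, ordered by KO minus WT difference, largest at the top) on the 6 arrays (columns), each minus the probe's mean over the arrays; red is above and blue below that mean, and asterisks mark the 10 of them past the threshold. The upper rows turn from blue in WT to red in KO, most rows in the middle are pale, and in the lowest rows KO replicate 3 is closer to the WT arrays than KO replicates 1 and 2.

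The share of all background-corrected signal on an array that came from ribosomal protein probes was 7.73, 7.26 and 7.96 percent in WT replicates 1 to 3. It was 7.59, 7.54 and 8.72 percent in KO replicates 1 to 3. The groups overlapped, and the means of 7.65 ± 0.36 and 7.95 ± 0.67 percent (SD, n = 3) differed by 0.30, less than the SD of either group. The 11 probes past the threshold, which were chosen on this contrast, held 0.599, 0.609 and 0.551 percent of the signal in WT and 0.963, 0.908 and 0.836 percent in KO. The higher probes were thus a small part of the family's total signal.

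Among the small subunit probes 8 of 27 (29.6 percent) were higher and 0 lower, with a median difference of 0.32. Of all tested probes 7.53 percent were higher and 7.55 percent lower. Rps9, whose bacterial counterpart affects the accuracy of decoding, had the largest differences, and both of its probes passed. Its brighter probe read 12.27, 12.41 and 12.18 in WT and 13.56, 13.40 and 12.79 in KO. The groups did not overlap, and the difference was 0.97 ± 0.20 (1.95-fold, limma adjusted p = 0.0175). Its other probe read 11.26, 11.30 and 11.21 in WT and 12.68, 12.31 and 11.77 in KO, a difference of 1.00 ± 0.21 (limma adjusted p = 0.0191). On both probes KO replicate 1 was the highest and KO replicate 3 the lowest of the KO arrays.

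Rps15, which in human cells is needed for the export of the small subunit from the nucleus, read 11.11, 10.87 and 10.88 in WT and 12.03, 11.81 and 11.43 in KO. Its difference was 0.80 ± 0.18 (1.74-fold, limma adjusted p = 0.0205), again with KO replicate 3 nearest to WT. Rps10 read 12.48, 12.50 and 12.13 in WT and 12.98, 13.00 and 12.88 in KO, a difference of 0.59 ± 0.15 (limma adjusted p = 0.0323). Rps10 is mutated in some families with Diamond-Blackfan anaemia, and it is ubiquitinated on stalled ribosomes.

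Rps2 and Rps3 sit where the mRNA enters the small subunit. Rps2 read 11.58, 11.64 and 11.76 in WT and 12.53, 12.07 and 12.10 in KO, a difference of 0.57 ± 0.16 (limma adjusted p = 0.0438). The dimmer Rps3 probe read 11.23, 11.19 and 11.15 in WT and 11.76, 11.48 and 12.03 in KO, a difference of 0.56 ± 0.16 (limma adjusted p = 0.0470). For these genes KO replicate 1 and KO replicate 3, respectively, stood highest, so the KO arrays did not keep one order across the higher genes.

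Rps13 is a core protein of the small subunit. It read 11.42, 11.24 and 11.22 in WT and 12, 11.87 and 11.59 in KO, a difference of 0.53 ± 0.15 (limma adjusted p = 0.0488). Its groups did not overlap, and its p lay just inside the threshold.

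Other small subunit genes did not pass. Rps19, the gene most often mutated in Diamond-Blackfan anaemia, read 13.65, 13.66 and 13.15 in WT and 14.05, 13.96 and 13.97 in KO, a difference of 0.51 ± 0.17 (limma adjusted p = 0.0699). Rps6, the substrate of the S6 kinases downstream of mTOR, read 12.86, 12.68 and 12.25 in WT and 13.05, 12.98 and 13.10 in KO, a difference of 0.45 ± 0.17 (limma adjusted p = 0.110). In both genes WT replicate 3 was the lowest array. Rps14, lost in the 5q- syndrome of human bone marrow, differed by 0.11 ± 0.13 (limma adjusted p = 0.624), with overlapping groups.

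Rps27a encodes ubiquitin fused to a small subunit protein. It read 10.76, 10.36 and 10.61 in WT and 9.74, 9.82 and 10.37 in KO, a difference of -0.60 ± 0.19 (limma adjusted p = 0.0671). The groups overlapped by 1 array, KO replicate 3. Rpsa, also known as the laminin receptor, had only a dim tested probe that was detected on 2 of 3 arrays in each group, with a difference of -0.38 ± 0.19 (limma adjusted p = 0.212).

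Among the large subunit probes 3 of 33 (9.09 percent) were higher and 0 lower, with a median difference of -0.02. The higher share was near the 7.53 percent of all tested probes. Rpl28, a protein of eukaryotic ribosomes with no bacterial counterpart, read 12.36, 12.41 and 12.12 in WT and 13.07, 13.05 and 12.81 in KO. Its difference was 0.68 ± 0.15 (1.60-fold, limma adjusted p = 0.0198). Rpl19, which forms a bridge to the small subunit, read 11.29, 11.02 and 10.82 in WT and 11.59, 11.56 and 11.70 in KO, a difference of 0.58 ± 0.16 (limma adjusted p = 0.0387). The groups did not overlap for either gene. A dim probe of Rpl23 was the remaining one, and the probes of that gene are set side by side further on. Whether the large and the small subunit probes differed in their shift was not tested.

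Rpl34 and Rpl30 had the lowest differences among large subunit genes whose groups did not overlap, and were named after their values were seen. Rpl34 read 13.71, 13.57 and 13.62 in WT and 13.25, 13.23 and 13.25 in KO, a difference of -0.39 ± 0.13 (limma adjusted p = 0.0697). Rpl30 read 11.08, 11.12 and 11.06 in WT and 10.42, 10.50 and 10.88 in KO, a difference of -0.48 ± 0.16 (limma adjusted p = 0.0659). Neither passed. KO replicate 3 was the KO array nearest to WT for Rpl30, and KO replicates 1 and 3 tied as nearest for Rpl34. Rpl39, at the exit tunnel, and Rpl13a, a frequent reference gene that also acts in a translation-silencing complex, differed by -0.03 ± 0.14 and -0.08 ± 0.15 (limma adjusted p = 0.896 and 0.764).

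The stalk proteins recruit elongation factors to the ribosome. Rplp1 was the brightest probe of the array on 5 of 6 arrays and the second brightest on WT replicate 1. Its deposited intensities were 27800, 28101 and 23029 in WT and 25582, 25671 and 25512 in KO. Because quantile normalization gives the brightest probe of every array the same value, its normalized value was 14.67 on those 5 arrays and 14.61 on WT replicate 1, with a difference of 0.02 ± 0.13 (limma adjusted p = 0.934). A change of Rplp1 relative to all other probes could therefore not be read from the normalized values. Rplp0 had a dim tested probe, with a mean intensity of 210 and a difference of 0.19 ± 0.19 (limma adjusted p = 0.511).

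**Figure D2:**
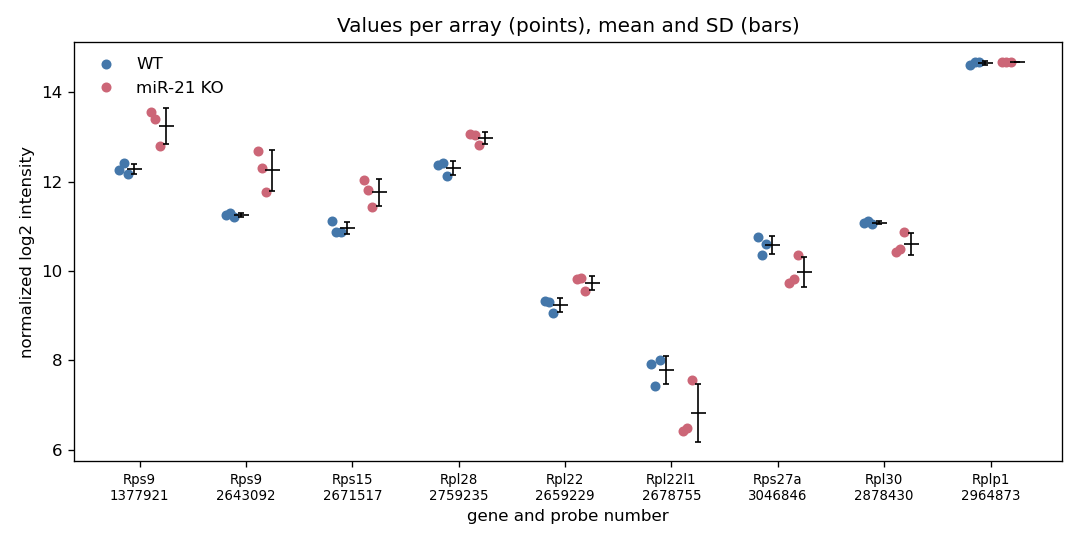
Normalized log2 intensity (y axis) of 9 ribosomal protein probes (x axis, gene and probe number) in 3 WT (blue) and 3 miR-21 KO (red) arrays, replicates 1 to 3 from left to right, with the mean and SD beside each group. The KO points of Rps9, Rps15 and Rpl28 lie above all WT points, those of Rpl30 below them, 1 KO point of Rpl22l1 and of Rps27a falls among the WT points, and Rplp1 is at the top of the scale in both groups.

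The differences of Rpl22 and its paralog Rpl22l1 lay on opposite sides of 0, and neither passed the threshold. Rpl22, which in mice is needed for the development of alpha-beta T cells, read 9.33, 9.31 and 9.06 in WT and 9.82, 9.84 and 9.55 in KO, a difference of 0.50 ± 0.15 (1.41-fold, limma adjusted p = 0.0548). Rpl22l1 read 7.92, 7.44 and 8.0 in WT and 6.42, 6.48 and 7.56 in KO, a difference of -0.96 ± 0.30 (1.95-fold lower, limma adjusted p = 0.0579). In mouse cells Rpl22 is known to repress Rpl22l1. Each of the genes passed under 5 of 18 alternatives, and without KO replicate 3 both did.

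The log2 value of Rpl22 minus that of Rpl22l1 was 1.42, 1.88 and 1.06 in WT and 3.40, 3.36 and 1.98 in KO. Every KO array lay above every WT array, with KO replicate 3 only just above WT replicate 2. The means of 1.45 ± 0.41 and 2.91 ± 0.81 (SD, n = 3) differed by 1.46, with an exact two-sided permutation p of 0.1, the smallest that 3 against 3 arrays allow. This pair was chosen after its values were seen, so this p-value cannot serve as a test of it. Over 18 other settings of the fit, which use the same arrays or some of them, its difference lay between 1.06 and 1.93.

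None of the other paralogs passed. Rps27l, a paralog of Rps27 that p53 induces in human cells, read 13.61, 13.50 and 13.64 in WT and 13.19, 13.17 and 13.38 in KO, a difference of -0.34 ± 0.14 (limma adjusted p = 0.122), with groups that did not overlap. Rps4y2, whose current symbol is Rps4l, differed by -0.18 ± 0.23 with overlapping groups. Rpl7l1, a relative of Rpl7 that acts in ribosome assembly, differed by 0.06 ± 0.23 and 0.20 ± 0.14 on its 2 probes. Rps19bp1, which is taken in by its symbol but encodes a partner of Rps19 and not a ribosomal protein, differed by 0.05 ± 0.16. Of the 7 tested probes of paralogs and other genes, 0 passed in either direction, and at an unadjusted p under 0.05 0 were higher and 3 lower.

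In a bulk tissue, fewer cells of a type and less RNA per cell cannot be told apart, and markers of several cell types moved along with the groups. The marker counts are to be read beside the 7.53 percent higher and 7.55 percent lower of all tested probes. The markers of B and plasma cells were lower for 4 of 5 tested genes, with a summed normalized intensity of 463 to 2651 in WT and 191 to 268 in KO. T and NK cell markers were lower for 5 of 7 (445 to 988 and 253 to 358) and macrophage markers for 3 of 6 (1805 to 2033 and 947 to 1410). Adipocyte markers were higher for 4 of 4 (159 to 2747 and 5544 to 16530), endothelial markers for 3 of 4 (207 to 251 and 470 to 568) and smooth muscle markers for 1 of 5 (14220 to 26660 and 24780 to 33740). Colonocyte markers were lower for 3 of 7 (44650 to 45910 and 37470 to 37990). Fibroblast markers were higher for 1 of 5, blood markers lower for 1 of 3, and goblet cell markers passed for 0 of 4. The proliferation genes, 5 tested, passed in neither direction (1103 to 1696 and 920 to 2041). The part of these markers in the ribosomal protein differences was not tested.

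For 16 genes the array holds several probes, and for 9 genes several were tested, which gives 10 pairs of a dimmer with the brightest probe of the gene. In all 10 pairs both probes had a difference of the same sign, as did 2530 of all 3287 pairs. Some of these signs rest on differences near 0. The brighter Rpl38 probe, at -0.02, turned to 0.19 with cyclic loess, while the dimmer one stayed negative (-0.49). The test of the difference within pairs called 0 of the 10 by limma with adjustment over 3287 such pairs, with 3 at an unadjusted p under 0.05. Over all 3287 pairs it called 61, or 1.86 percent.

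Rpl23, a protein at the face between the subunits that also binds Mdm2, had the widest spread. Its dimmest tested probe (mean intensity 602) read 8.40, 8.99 and 8.23 in WT and 9.31, 9.45 and 9.26 in KO, a difference of 0.80 ± 0.20 (limma adjusted p = 0.0303). A probe at a mean intensity of 14236 differed by 0.44 ± 0.18 and the brightest, at 17770, by 0.07 ± 0.13, neither past the threshold. The dimmest probe differed from the brightest by 0.73 ± 0.18 (limma adjusted p over all pairs = 0.103). The remaining probe of Rpl23, with a mean intensity of 97.3, was detected on 1 array. The call for Rpl23 thus rests on 1 of its 3 tested probes.

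The probes of Rps9 ran together, with a difference between them of 0.03 ± 0.13 (limma adjusted p = 0.945) and r = 0.991 over the 6 arrays. The probes of Rps3 differed by 0.14 ± 0.17 (limma adjusted p = 0.785), and the brighter one, at 0.43 ± 0.15, did not pass on its own (limma adjusted p = 0.0781). In 3 genes the dimmer probe had the lower difference. For Rpl29, named after its values were seen, the dimmer and the brighter probe differed between the groups by -0.18 ± 0.21 and -0.02 ± 0.16. For Rpl38, which in mouse embryos is needed for the translation of Hox mRNAs, these were -0.46 ± 0.22 and -0.02 ± 0.13. For Rps24, named after its values were seen, they were -0.43 ± 0.18 and -0.05 ± 0.13, and its probes cite different RefSeq transcripts. None of these pairs passed (limma adjusted p = 0.731 for Rpl29, 0.386 for Rpl38 and 0.294 for Rps24).

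Several genes had a bright probe and others that stayed at background. Rpl37 had 1 probe at a mean intensity of 23038 and others at 102.7 and 100.9. Rps19 had probes at 14120 and 101.4. A gene with a dim probe only can therefore not be called weakly expressed from these arrays.

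**Figure D3:**
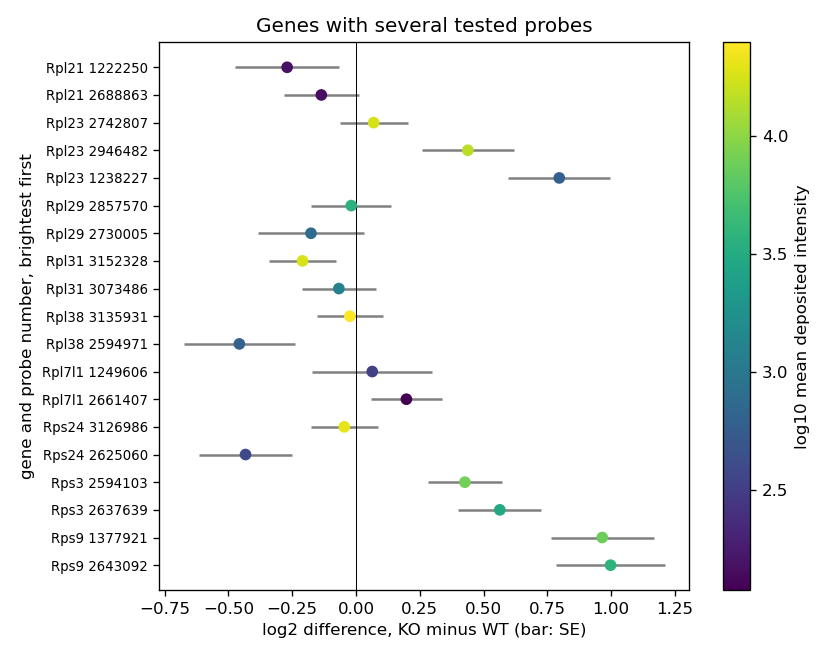
KO minus WT log2 difference (x axis, bar: SE, n = 3 per group) for the 9 ribosomal protein genes with several tested probes, each gene's brightest probe first (y axis, gene and probe number), with colour giving log10 of the mean deposited intensity. The probes of Rps9 and of Rps3 lie close together to the right of 0, while those of Rpl23 spread from 0.07 to 0.80.

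Differences were unequal along the range of brightness. Of the 67 tested probes, the 23 brightest had mean log2 values of 13.41 to 14.66 (mean intensities of 11210 to 25949), and 1 of them was higher. Their median difference was -0.01 and their median size of difference 0.12. All 90 tested probes in the same range had 3 higher and 4 lower, and a median size of 0.16. The next 22 probes (11.18 to 13.40) held 9 of the 11 calls, with a median difference of 0.47. Of all 479 tested probes in that range 44 (9.19 percent) were higher and 51 (10.6 percent) lower, with a median of -0.02. The 22 dimmest (4.73 to 10.84) held 1 call, the dim Rpl23 probe, with a median of -0.07. Of all 11691 tested probes in that range 951 (8.13 percent) were higher and 956 (8.18 percent) lower, with a median of 0.03. A further cut at 14 was not one of these ranges, and no count over all tested probes was set beside it. Below a mean of 14 there were 55 probes with 11 calls. At or above 14 there were 12 probes with 0 calls in the same limma fit, 0 at an unadjusted p under 0.05 and no difference above 0.21 in size.

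Ribosomal proteins supplied 13 to 15 of the 50 brightest probes on WT arrays and 16 to 17 on KO arrays. Of the 100 brightest they supplied 25, 24 and 19 on WT arrays and 25 on each KO array, so the groups met there. The 5 with the highest means were Rplp1, Rpl38, Rpl41, Rpl37 and Rpl35, and their differences lay between -0.17 and 0.07. The within-group SD of the 23 brightest was 0.09, against 0.17 in the middle and 0.26 in the dimmest. The 5 tested probes with the lowest means, of Rpsa, Rpl7l1, Rps19bp1, Rps15a and Rpl21, had mean intensities of 108 to 145 and differences of -0.38 to 0.20, and none passed. How far saturation of the scanner or the fixed top of the quantile scale narrowed the bright differences was not tested.

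**Figure D4:**
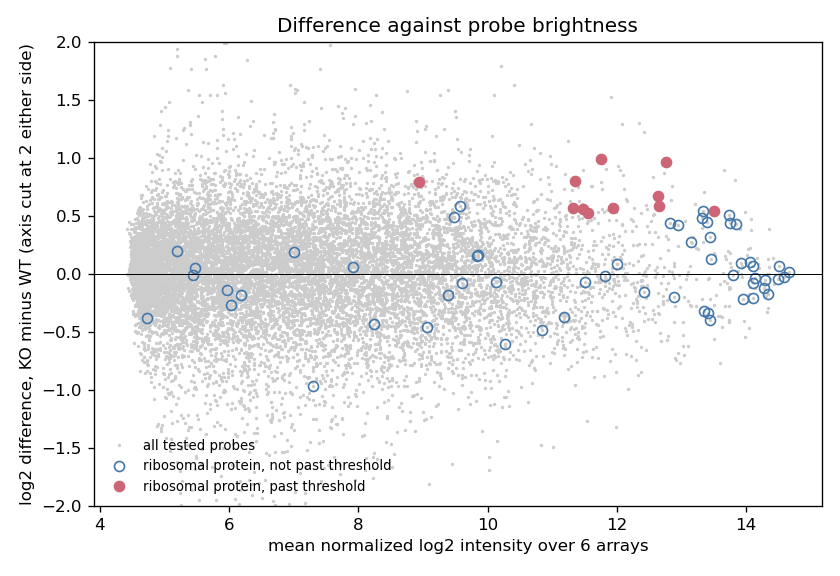
KO minus WT log2 difference (y axis, cut at 2 on either side, which leaves out 71 tested probes, none of them ribosomal) against mean normalized log2 intensity over 6 arrays (x axis) for all 13737 tested probes (grey), ribosomal protein probes (open blue) and those past the threshold (filled red). All but 1 of the filled points lie between 11 and 14 on the x axis, and the ribosomal probes at the far right stay close to 0.

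Other genes of the pathway were counted from lists of general knowledge, with each gene represented by its brightest probe. Each list count is to be read beside the 7.53 percent higher and 7.55 percent lower of all tested probes. No list was tested as a set. Of 18 tested genes outside the symbol rule that were listed for mRNAs with TOP tracts, 2 were higher and 0 lower (median difference 0.28). Not all genes of this list are translation factors. Hnrnpa1, which encodes an RNA-binding protein of splicing, read 7.81, 7.13 and 6.86 in WT and 8.74, 8.53 and 8.43 in KO, a difference of 1.30 ± 0.23 (2.46-fold, limma adjusted p = 0.0108). Eef1b2, an exchange factor of elongation, differed by 0.49 ± 0.14 (limma adjusted p = 0.0426), and its groups did not overlap. Of 22 other translation factors 4 were higher and 1 lower (median 0.24). The initiation factor genes Eif3b, Eif2b5 and Eif3g differed by 0.92 ± 0.18, 0.79 ± 0.15 and 0.64 ± 0.14 (limma adjusted p = 0.0139, 0.0129 and 0.0194). Eef1e1, a scaffold of tRNA synthetases, was lower by -0.60 ± 0.16 (limma adjusted p = 0.0329).

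Of 34 tested ribosome biogenesis genes 0 were higher and 3 lower (median -0.02), beside 7.53 and 7.55 percent of all tested probes. At an unadjusted p under 0.05, 3 were higher and 5 lower. Nip7, a factor of pre-rRNA processing, read 9.50, 9.07 and 9.12 in WT and 8.15, 8.32 and 8.33 in KO, a difference of -0.97 ± 0.16 (limma adjusted p = 0.00833). Nmd3, the export adaptor of the large subunit, and Rpf2, which helps bring in the small ribosomal RNA of that subunit, differed by -0.78 ± 0.16 and -0.54 ± 0.13 (limma adjusted p = 0.0174 and 0.0272). Of 19 genes of RNA polymerases I and III, 1 was higher (Polr3b, 0.50 ± 0.14) and 1 lower (Taf1d, -0.88 ± 0.22), with limma adjusted p of 0.0456 and 0.0307.

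Of 18 growth regulators of translation 2 were higher and 2 lower (median -0.13), beside 7.53 and 7.55 percent of all tested probes. Deptor and Akt1s1, which encode inhibitory partners of mTOR, differed by 0.83 ± 0.19 and 0.47 ± 0.14 (limma adjusted p = 0.0227 and 0.0469). Max, the partner of Myc, and Eif4ebp3, a repressor of cap-dependent initiation, differed by -0.90 ± 0.25 and -0.78 ± 0.22 (limma adjusted p = 0.0429 and 0.0434). Of 7 transcription factors linked to ribosomal protein promoters 0 were higher and 1, Sp1, was lower, at -0.75 ± 0.14 (limma adjusted p = 0.0128). Of 9 genes of ribosome quality control and nucleolar stress 0 passed in either direction (1 higher and 2 lower at an unadjusted p under 0.05), and Cdkn1a and Eif2ak2 differed by -0.10 ± 0.20 and 0.44 ± 0.29.

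The mitochondrial ribosomal protein genes, which serve a separate ribosome, were set beside the cytosolic ones. Of their 68 tested genes 8 were higher and 7 lower (median 0.05), beside 7.53 and 7.55 percent of all tested probes. Mrps10 and Mrps9 differed by 0.79 ± 0.16 and 0.76 ± 0.14, and Mrpl47 and Mrpl20 by -0.76 ± 0.14 and -0.69 ± 0.19 (limma adjusted p = 0.0169, 0.0120, 0.0108 and 0.0378). Calls stood on both sides here. Whether this differs from the cytosolic family, where all 11 calls were on the higher side, was not tested.

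**Figure D5:**
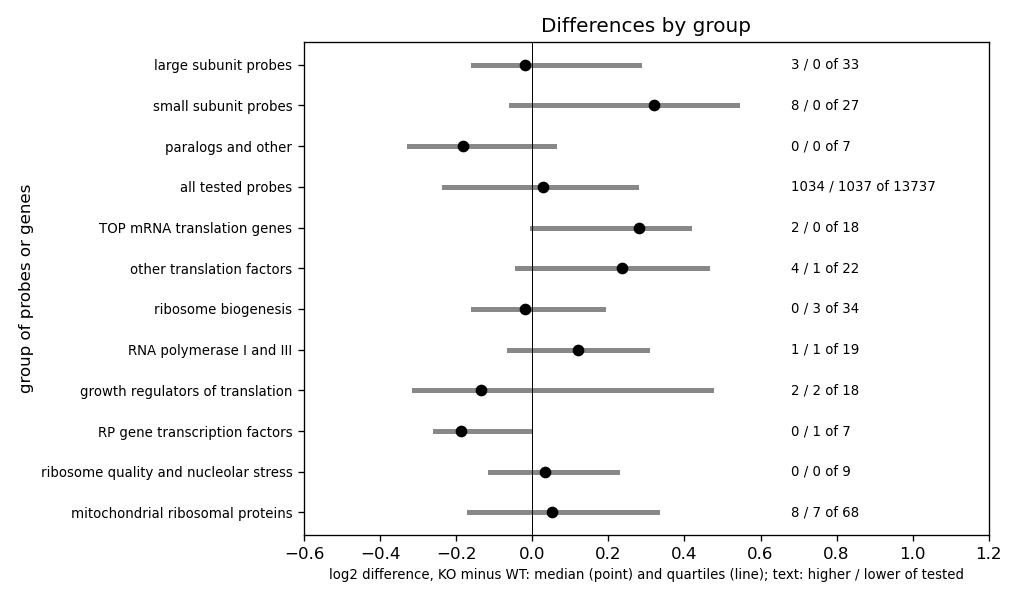
Median (point) and quartiles (line) of the KO minus WT log2 difference (x axis) over the tested probes or genes of each group (y axis), with counts higher and lower of those tested at the right. Small subunit probes have a median of 0.32 with 8 higher and 0 lower of 27, ribosome biogenesis genes a median of -0.02 with 0 higher and 3 lower of 34, and all tested probes a median of 0.03.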

How the data were processed

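Total RNA of 6 colon mucosa samples was hybridised to 1-colour bead arrays. Per the file headers, the authors' probe table gives for each array the linear intensity averaged over beads. It also gives a detection p-value per the file headers, and 2 other measures, the bead standard error and the number of beads. The authors deposited a second table of normalized log2 values, which correlated at r of at least 0.9998 with those computed here on each array. Of tools, the submitters' processing notes list limma only. The scanner software was not stated in the sources used.

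Intensities were normalized with neqc of limma 3.58.1 (R 4.3.3): normexp correction, with control levels taken from the detection p-values, then the quantile step on values offset by 16, then log2. Probes detected at p under 0.05 on at least 3 arrays were fitted with lmFit and eBayes, as KO minus WT with two-sided p-values, adjusted by Benjamini-Hochberg over all 13737. Within-gene pairs were fitted the same way. The number of arrays limits the precision.

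The members and lists were chosen with earlier results of these data known. Genes named are the called members, paralogs, a set of well known members, the 5 brightest and 5 dimmest, and up to 4 called genes a list; others are marked as chosen after their values were seen. Member symbols are those given with the authors' probes, and sequences are RefSeq's (GRCm38.p6). RefSeq has newer symbols for 2 member probes, Rps3a1 for Rps3a and Rps4l for Rps4y2. Another 2 probes with a current ribosomal protein symbol fell outside the rule. Alternatives in normalization, background, filter, fit, block and samples were run. Some members are counted but not reported by name here.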

Additional observations from a re-analysis of the deposited data

How the results depend on the processing

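All 11 probes past the threshold kept a positive difference in all 198 values from 18 alternatives, and 107 of these passed. The Rps9 probes lost the call under 5 and 6 alternatives, Rps15 under 5, Rpl28 under 6, Rps10 under 8, Rpl23 under 9, Rpl19 and Rps13 under 10, Rps2 under 12 and Rps3 under 13. The count of higher probes was 11. It was 2 with median scaling, 18 with cyclic loess, 0 without normalization between arrays and 17 without background correction. It was 4 with no filter on dim probes, 17 with array weights, 19 with an intensity trend and robust prior, and 3 without the 2 dimmest arrays, an alternative chosen after seeing the data. Over all tested probes, with 1034 higher as reported, the counts in the same order were 534, 925, 123, 1024, 765, 1959, 1124 and 236. With no filter, the higher and lower counts are of 83 member probes and 25697 probes, in place of 67 and 13737. Without the 2 dimmest arrays they are of 67 and 12964. The count of lower probes was 0. It was 3 with median scaling, 4 without background correction, 2 with no filter, 8 with array weights, 5 with the trend and robust prior and 1 without the 2 dimmest arrays. Over all tested probes, with 1037 lower as reported, these counts were 954, 958, 727, 1813, 1125 and 331. Leaving out 1 replicate at a time gave 0 to 8 higher probes, 0 to 4 lower probes and a median difference of 0.05 to 0.08. Over all tested probes it gave 212 to 1062 higher and 254 to 1028 lower. The median difference, 0.06 as reported, was -0.15 with median scaling, 0.14 with cyclic loess and -0.0366 without normalization. The within-gene pairs past the threshold, 0 as reported, were 1 without background correction and 1 with array weights, in each case the dim Rpl23 probe. The labels give no pairing of replicate numbers. After centring within groups, same-numbered WT and KO arrays had r of 0.007, 0.155 and 0.056, and different-numbered ones -0.125 to 0.078. Centring on 3 arrays a group constrains these values, so they cannot decide whether the numbers pair the samples. With the number as a replicate block, 9 probes were higher, 1 lower (Rpl22l1) and 1 pair passed. Of all 13737 tested probes 1051 were then higher and 1103 lower. The authors' deposited log2 values gave 8 higher and 0 lower, against 993 and 1009 of all 13737. The causes were not tested. With 3 arrays a group, differences of the size of Rps13 sat at the edge of detection.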
